A study of Homo sapiens with 3 samples.

Results

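The genes described here handle iron in the cell: FTH1 and FTL, which encode the heavy and light chains of ferritin, the transferrin receptor gene TFRC, the divalent metal importer gene SLC11A2, the exporter gene SLC40A1, the ferritin cargo receptor gene NCOA4, the regulator gene IREB2, and STEAP2, STEAP3 and STEAP4, which encode membrane metalloreductases. They were taken by GENCODE gene name from a table of 58884 gene rows, and each of the 10 names matched 1 row. Expression was measured by RNA sequencing in LNCaP, an established androgen-responsive human prostate cancer cell line. The cells were grown for 24 h and then for 72 h with 2% serum in medium of which 50% was conditioned medium (CM): PPAT-CM, which the labels mark as tumor, PVAT-CM, which they mark as normal, or control-CM. PPAT is periprostatic adipose tissue in the series title, PVAT is not expanded in the labels, and the number of tissue donors behind each CM is unknown here. Each medium had 1 library, so no difference below has a replicate check, and bracketed ranges are 95% intervals that cover counting error only. The question the design poses is how expression differs among the 3 media.

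Iron enters most cells bound to transferrin through the transferrin receptor, is reduced in the endosome by STEAP enzymes and leaves the endosome through the metal importer. Iron that is not used is stored in ferritin, whose heavy chain oxidises iron and whose light chain helps the mineral core form. NCOA4 delivers ferritin to lysosomes, which frees the iron, and ferroportin, the SLC40A1 product, is the known cellular iron exporter. Iron regulatory proteins, encoded by ACO1 and IREB2, bind stem-loops called iron-responsive elements when iron is scarce. Bound in the 5′ untranslated region they block translation, as in the ferritin mRNAs, and bound in the 3′ region they stabilise the mRNA, as in TFRC. STEAP genes were first studied in prostate, where STEAP1 and STEAP2 are abundant.

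The stem-loops are shown because their place in the transcript separates the genes. Reference transcripts of GENCODE release 29 (GRCh38) were searched on the sense strand for a C, 5 bases, CAGTG, a base other than G and 5 further bases, of which at least 4 paired with the 5 bases before CAGTG. FTH1, FTL and SLC40A1 each held 1 match in the 5′ untranslated region, TFRC held 4 in the 3′ region, and SLC11A2 and IREB2 held 1 each there with 4 of 5 pairs. Matches of that kind occurred in 9.93% of 19922 protein-coding genes, and matches with 5 of 5 pairs in 1.53%. The 7 sites printed below for FTH1, FTL, SLC40A1 and TFRC have 5 of 5 pairs, and NCOA4, STEAP2, STEAP3 and STEAP4 held no match. Each line gives 30 bases 5′ to 3′, with the loop in capitals.
FTH1: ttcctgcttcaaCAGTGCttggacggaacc
FTL: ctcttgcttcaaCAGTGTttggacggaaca
SLC40A1: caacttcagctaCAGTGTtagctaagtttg
TFRC site 1: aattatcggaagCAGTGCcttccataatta
TFRC site 2: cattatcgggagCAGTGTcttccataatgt
TFRC site 3: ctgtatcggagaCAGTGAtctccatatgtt
TFRC site 4: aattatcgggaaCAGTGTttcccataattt
SLC11A2: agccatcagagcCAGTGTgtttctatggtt
IREB2: catttgctttcaCAGTGAtgagtgagagga
The ferritin pair had the same base at 26 of 30 positions, while FTH1 and SLC40A1 shared 13 of 30. Pairs of TFRC sites shared between 19 and 25 of 30. The FTH1 window lies at chr11:61967573-61967602 on the minus strand and the FTL window at chr19:48965335-48965364 on the plus strand. The TFRC windows lie on the minus strand between chr3:196050462-196050491 and chr3:196050978-196051007. The SLC40A1 window is chr2:189580660-189580689 and the SLC11A2 window chr12:50988268-50988297, both on the minus strand, and the IREB2 window is chr15:78500969-78500998 on the plus strand.

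Library totals lay between 14174241 and 16965584 counts. Counts were scaled with TMM factors (trimmed mean of M values), and scaled CPM denotes counts brought to one common library size with these factors. Genes of the mitochondrial chromosome took 15.5% of counts in PPAT-CM, 21.1% in PVAT-CM and 30.8% in control-CM. Scaling by total counts in place of TMM moved the median log2 ratio of all genes by 0.24 for PPAT-CM against control-CM, by 0.13 for PVAT-CM against control-CM and by 0.11 for PPAT-CM against PVAT-CM. All 9 luminal prostate markers examined, among them KLK3 and FOLH1, had counts in every library, and their summed level was 2609, 3502 and 3488 scaled CPM in PPAT-CM, PVAT-CM and control-CM. Of 3 basal markers TP63 and KRT5 were at 0, and KRT14 had 2, 20 and 38 counts in PPAT-CM, PVAT-CM and control-CM. Of 6 adipocyte markers ADIPOQ, FABP4, LEP and LPL were at 0 in every library, and the list summed to 90, 27 and 13 counts in the same order, almost all from PLIN1. Of 8 leukocyte and macrophage markers PTPRC was at 0, and the list summed to 11, 17 and 13 counts. The 5 erythroid markers summed to 0, 0 and 4 counts. The 7 fibroblast markers summed to 534, 371 and 792 counts, with COL1A2, DCN and PDGFRA at 0, and the 3 endothelial markers to 35, 16 and 27. The part of these differences in the results below was not tested.

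The ferritin heavy chain transcript had the largest ratio of the 9 genes with enough counts to compare. FTH1 (ENSG00000167996, chr11:61959718-61967660, minus strand) had 26196 counts in PPAT-CM, 7778 in PVAT-CM and 5705 in control-CM. The PPAT-CM library stood far above the other two, and PVAT-CM lay between PPAT-CM and control-CM. The ratio was 3.79 (3.68 to 3.90) for PPAT-CM against control-CM, 1.45 (1.40 to 1.501) for PVAT-CM against control-CM and 2.61 (2.55 to 2.68) for PPAT-CM against PVAT-CM. Among 12256 genes whose mean count was 50 or more, FTH1 had the 98th highest ratio of PPAT-CM over control-CM. FTH1 reads made up 0.154% of all counts in PPAT-CM, 0.0549% in PVAT-CM and 0.0345% in control-CM. In bulk RNA a larger number of cells with a transcript and more transcript per cell cannot be told apart.

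The light chain transcript did not share this difference. FTL (ENSG00000087086, chr19:48965301-48966878, plus strand) had 6204 counts in PPAT-CM, 5530 in PVAT-CM and 5749 in control-CM. These counts were close to each other in the 3 libraries. The ratio for PPAT-CM against control-CM was 0.890 (0.859 to 0.923), slightly below 1, and with total counts its log2 ratio turned to 0.07 in place of -0.17. Against control-CM, PVAT-CM had a ratio of 1.02 (0.986 to 1.06), whose interval included 1.

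The balance of the 2 ferritin transcripts within a library does not depend on the scaling between libraries. Per read, FTH1 stood to FTL at 4.22 (4.11 to 4.34) in PPAT-CM, 1.41 (1.36 to 1.46) in PVAT-CM and 0.992 (0.956 to 1.03) in control-CM. Per kilobase of merged exons, with 2030 bases for FTH1 and 878 for FTL, the ratio was 1.83 in PPAT-CM, 0.608 in PVAT-CM and 0.429 in control-CM. Per kilobase of the principal transcript, which is 1229 bases for FTH1, it was 3.02, 1.00 and 0.709 in the same order. With either length the FTH1 transcript exceeded the FTL transcript in PPAT-CM, and FTL exceeded FTH1 in control-CM. The order in control-CM rests on the length correction, since the interval per read included 1. In PVAT-CM the interval of the principal-transcript ratio (0.971 to 1.04) included 1. These are RNA ratios, and the protein chains were not measured.

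**Figure D1:**
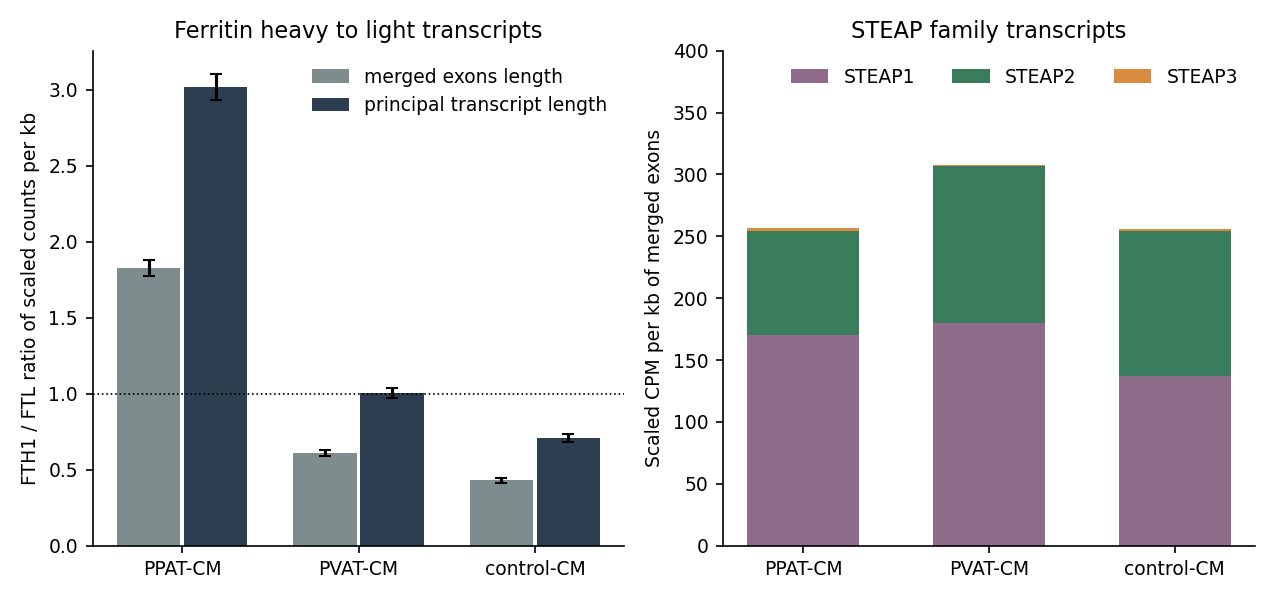
Left, ratio of FTH1 to FTL in scaled counts per kb for PPAT-CM, PVAT-CM and control-CM, with merged exon length and principal transcript length and 95% counting intervals; the ratio per merged exon length is 1.83 in PPAT-CM, 0.608 in PVAT-CM and 0.429 in control-CM. Right, scaled CPM per kb of STEAP1, STEAP2 and STEAP3 stacked per medium; STEAP1B and STEAP4 are below 0.1 in each library and are not drawn, and the STEAP2 part is smallest in PPAT-CM.

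Ferritin genes have many near-identical copies in the genome, among which reads can be split or dropped. The table held 26 rows named as FTH1 copies, 15 of which had a count in any library. They summed to 102 counts in PPAT-CM, 90 in PVAT-CM and 37 in control-CM, at most 1.14% of the sum with FTH1. The copies with the highest mean count were FTH1P20 with 15, 49 and 10 counts, FTH1P2 with 25, 18 and 9, and FTH1P8 with 36, 11 and 4. The 16 FTL copies summed to 6, 2 and 18 counts, in the same order of media, and FTLP14 with 3, 2 and 18 counts led them, ahead of FTLP3 and FTLP6. With the copies added, the log2 ratio of FTH1 for PPAT-CM against control-CM was 1.92, as without them. Rows this small could hardly move that ratio, and reads dropped in counting would appear in no row. The part of dropped reads in the FTH1 and FTL values was not tested. BEST1 overlaps FTH1 on the opposite strand over 5798 bases and had 435 counts in PPAT-CM, 483 in PVAT-CM and 450 in control-CM, far below the FTH1 counts in each library. How the counting treated strand is not stated in the labels.

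The transferrin receptor transcript was also higher in PPAT-CM. TFRC (ENSG00000072274, chr3:196027183-196082189, minus strand) had 1448 counts in PPAT-CM, 649 in PVAT-CM and 606 in control-CM. PPAT-CM stood apart from the other media, which were near each other. The ratio was 1.97 (1.79 to 2.17) for PPAT-CM against control-CM and 1.73 (1.58 to 1.90) for PPAT-CM against PVAT-CM. For PVAT-CM against control-CM it was 1.14 (1.02 to 1.27). TFRC reads per FTH1 read were 0.0553 in PPAT-CM, 0.0834 in PVAT-CM and 0.106 in control-CM, so both transcripts were higher in PPAT-CM, and FTH1 by more.

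SLC11A2 and SLC40A1 stayed within 1.5-fold of control-CM in both adipose media. SLC11A2 (ENSG00000110911, chr12:50979401-51028566, minus strand) encodes DMT1, which moves ferrous iron out of the endosome. It had 1410 counts in PPAT-CM, 964 in PVAT-CM and 1008 in control-CM. Its ratio was 1.15 (1.06 to 1.25) for PPAT-CM against control-CM and 1.02 (0.930 to 1.11) for PVAT-CM against control-CM, both near even. SLC40A1 (ENSG00000138449, chr2:189560579-189583758, minus strand) had only 102 counts in PPAT-CM, 91 in PVAT-CM and 67 in control-CM. Its ratio was 1.26 (0.914 to 1.74) for PPAT-CM against control-CM, an interval that included 1, and 1.44 (1.04 to 2.01) for PVAT-CM against control-CM. Both intervals reached past 1.5-fold, so the depth limits what can be said of SLC40A1. With total counts the log2 ratio of SLC40A1 for PVAT-CM against control-CM was 0.66 in place of 0.53, which is past 1.5-fold.

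Ferritin turnover and iron sensing genes lay within 1.5-fold. NCOA4 (ENSG00000266412, chr10:46005088-46030714, minus strand) had 2763 counts in PPAT-CM, 2226 in PVAT-CM and 1900 in control-CM. Both adipose media were above control-CM, with ratios of 1.20 (1.13 to 1.27) for PPAT-CM and 1.25 (1.17 to 1.33) for PVAT-CM. PPAT-CM against PVAT-CM gave 0.962 (0.910 to 1.02), and that log2 ratio of -0.055 turned to 0.052 with total counts. IREB2 (ENSG00000136381, chr15:78437431-78501456, plus strand) encodes an iron regulatory protein. It had 1196 counts in PPAT-CM, 748 in PVAT-CM and 758 in control-CM, highest in PPAT-CM and nearly equal in the others. The ratio was 1.30 (1.19 to 1.43) for PPAT-CM against control-CM and 1.24 (1.13 to 1.36) for PPAT-CM against PVAT-CM. With total counts the log2 ratio of IREB2 for PPAT-CM against control-CM was 0.62 in place of 0.38, which is past 1.5-fold.

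The STEAP reductases went in different directions. STEAP2 (ENSG00000157214, chr7:90167590-90238137, plus strand) had 13494 counts in PPAT-CM, 15782 in PVAT-CM and 15542 in control-CM. It was lowest in PPAT-CM, with a ratio of 0.716 (0.700 to 0.733) against control-CM and 0.663 (0.648 to 0.678) against PVAT-CM. The difference from PVAT-CM is past 1.5-fold, but not with total counts, where the log2 ratio was -0.49 in place of -0.59. PVAT-CM against control-CM gave 1.08 (1.06 to 1.10).

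STEAP3 (ENSG00000115107, chr2:119223831-119265652, plus strand), the main endosomal ferrireductase of red cell precursors, had 200 counts in PPAT-CM, 82 in PVAT-CM and 94 in control-CM. Its count in PPAT-CM exceeded both others. The ratio was 1.75 (1.37 to 2.27) for PPAT-CM against control-CM and 1.89 (1.46 to 2.48) for PPAT-CM against PVAT-CM. For PVAT-CM against control-CM it was 0.928 (0.682 to 1.26), whose log2 value of -0.11 turned to 0.025 with total counts. STEAP4 (ENSG00000127954, chr7:88270892-88306891, minus strand), a reductase known from adipocytes and inflammation, had 17 counts in PPAT-CM, 0 in PVAT-CM and 5 in control-CM. It was under the mean count of 50 and is not among the genes counted below. PPAT-CM against control-CM gave 2.80 (0.993 to 9.72), an interval that included 1. With PVAT-CM set at a floor of 3 counts, PPAT-CM against PVAT-CM gave 4.39, a value that leaves out the counting error of the 17 counts and has no interval.

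STEAP1, a family member without the reductase domain of the others, lies beside STEAP2 and was used for comparison. It had 5086 counts in PPAT-CM, 4165 in PVAT-CM and 3376 in control-CM. Its ratio to control-CM was 1.24 (1.19 to 1.30) for PPAT-CM and 1.31 (1.25 to 1.37) for PVAT-CM. STEAP1 reads per STEAP2 read were 0.377 (0.365 to 0.389) in PPAT-CM, 0.264 (0.255 to 0.273) in PVAT-CM and 0.217 (0.209 to 0.225) in control-CM, so the neighbours differed in opposite directions between PPAT-CM and control-CM. Per kilobase STEAP1 held 66.3% of the summed STEAP level in PPAT-CM, 58.4% in PVAT-CM and 53.5% in control-CM, and STEAP2 held 32.8%, 41.2% and 45.9%. The summed level was 257 scaled CPM per kb in PPAT-CM, 308 in PVAT-CM and 256 in control-CM. STEAP2-AS1, an antisense transcript across part of STEAP2, had 18, 17 and 22 counts in that order, and STEAP1B had 2, 3 and 3.

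**Figure D2:**
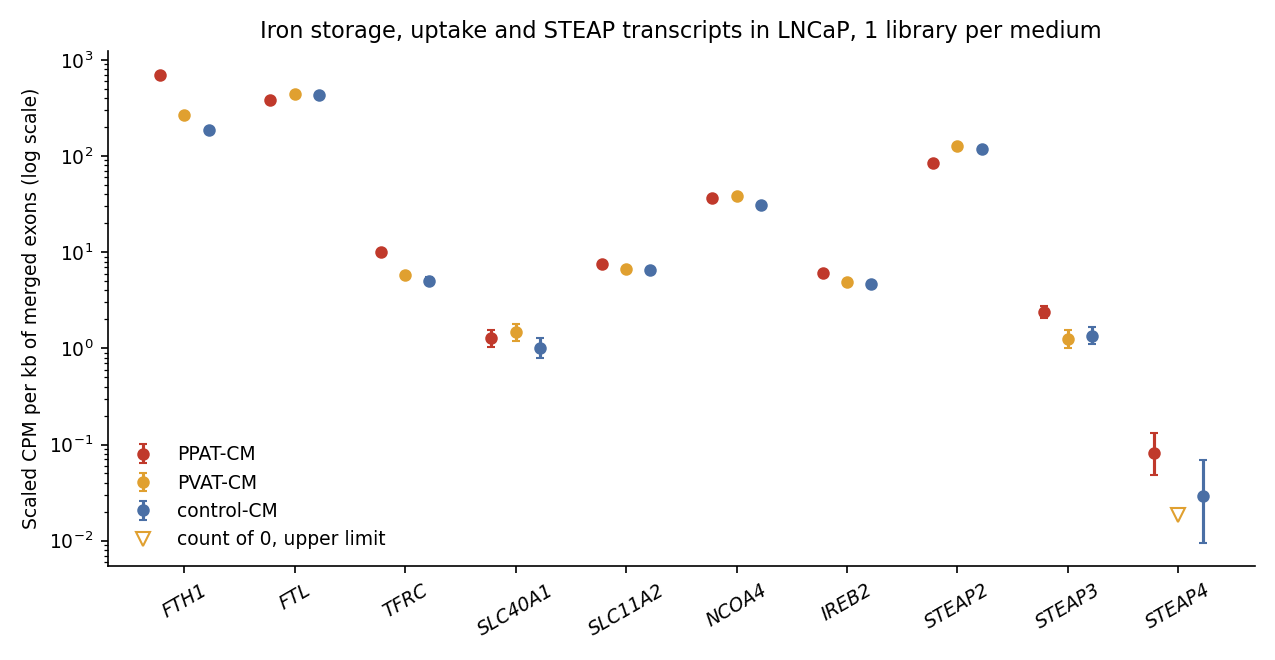
Scaled CPM per kb of merged exons, on a log axis, of the 10 genes in PPAT-CM, PVAT-CM and control-CM, with 95% Poisson counting intervals; the open triangle is the upper limit for STEAP4 in PVAT-CM, where its count was 0. FTH1 spans 702 to 185 between PPAT-CM and control-CM, while FTL spans 384 to 432.

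Levels per kilobase ordered the genes over several orders of magnitude. In PPAT-CM the order was FTH1 at 702 scaled CPM per kb, FTL at 384, STEAP2 at 84.2, NCOA4 at 36.8, TFRC at 9.98, SLC11A2 at 7.56, IREB2 at 6.02, STEAP3 at 2.38, SLC40A1 at 1.28 and STEAP4 at 0.0822. In PVAT-CM FTL led at 442, ahead of FTH1 at 269. In control-CM FTL was likewise first at 432, ahead of FTH1 at 185, STEAP2 at 118 and NCOA4 at 30.7. FTH1 ranked 38th of all rows by level in PPAT-CM, 110th in PVAT-CM and 167th in control-CM. The order of SLC11A2, TFRC and IREB2 was not firm, since in PPAT-CM SLC11A2 at 18.4 passed TFRC at 15.4 with principal transcript lengths, and in control-CM TFRC and IREB2 were both at about 7.8 to 7.9 with these lengths.

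A mean count of 50 was reached by 9 of the 10 genes. Of these 3 were higher in PPAT-CM than in control-CM by 1.5-fold or more and 0 were lower by that much. The 3 were FTH1, TFRC and STEAP3. Over all 12256 genes kept 12.0% were that much higher and 8.71% that much lower. The median log2 ratio of the 9 was 0.33, beside 0.03 over all genes kept. For PPAT-CM against PVAT-CM the same 3 genes were higher, against 8.56% of all genes, and STEAP2 was lower, against 6.07%. For PVAT-CM against control-CM 0 of 9 were past 1.5-fold, where 3.15% of all genes were higher and 3.49% lower, and FTH1 at 1.45 and SLC40A1 at 1.44 lay just inside the threshold. The medians of the 9 were 0.18 for PPAT-CM against PVAT-CM and 0.11 for PVAT-CM against control-CM, beside 0.02 over all genes in each. At 2-fold 1 of 9, FTH1, was past the threshold for PPAT-CM against control-CM, beside 6.67% of all genes, and 1 of 9, again FTH1, for PPAT-CM against PVAT-CM, beside 3.92%. For PVAT-CM against control-CM it was 0 of 9, beside 0.906%. The comparisons share libraries, so their values are not independent.

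**Figure D3:**
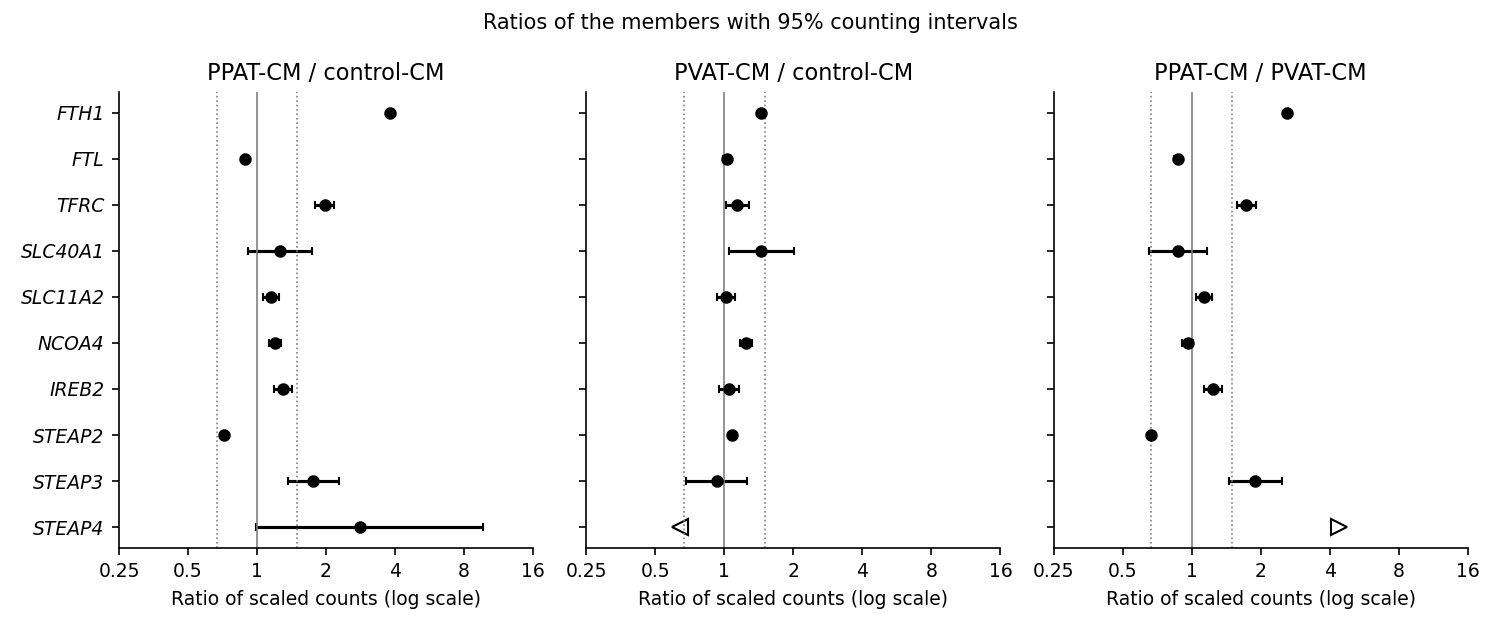
Ratios of TMM-scaled counts on a log axis for the 10 genes, with 95% counting intervals; the solid line marks 1, the dotted lines mark 1.5-fold in each direction, and open triangles are bounds where STEAP4 had a count of 0. FTH1, TFRC and STEAP3 lie right of the dotted line in both comparisons of PPAT-CM, and STEAP2 lies left of 1 in them.

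**Figure D4:**
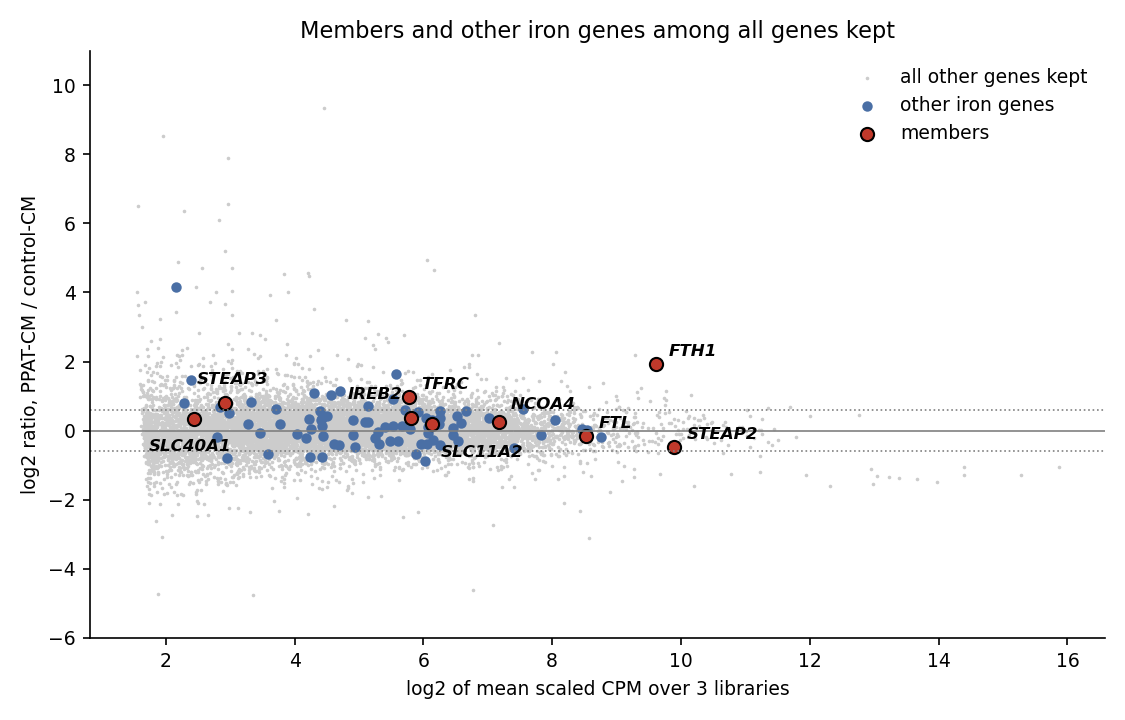
Each point is a gene with a mean count of 50 or more, placed by the log2 of its mean scaled CPM on the horizontal axis and the log2 ratio of PPAT-CM over control-CM on the vertical axis; dotted lines mark 1.5-fold. FTH1, at a log2 ratio of 1.92, and TFRC lie above the upper dotted line, while FTL and STEAP2, at -0.17 and -0.48, lie below 0.

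The genes closest to FTH1 in their log2 ratios of PPAT-CM and PVAT-CM over control-CM were DTX3L, SLC44A4 and GUCY1A1, at distances of 0.077, 0.085 and 0.10 in the plane of these values, among 8917 genes whose mean count was 200 or more. DTX3L had 1222 counts in PPAT-CM, 386 in PVAT-CM and 280 in control-CM. Closest to TFRC were ZFP36L1, STUB1 and FOS, at 0.0089, 0.031 and 0.031. ZFP36L1 had 2095, 936 and 879 counts in the same order. No neighbours are given for STEAP4, since its count of 0 in PVAT-CM makes its ratio depend on the pseudocount. These distances rest on 2 ratios that share the control-CM library.

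Upstream sequence is shown for genes higher in PPAT-CM than in control-CM by 1.5-fold or more with an entry in the RefSeq promoter table (GRCh38.p14). These were TFRC and STEAP3. The table held 15 windows of 300 bases for 9 of the 10 genes and none for FTH1. Both strands were searched for TGACNNNGC, the antioxidant response element core, the NF-kB motif of GGG, 5 bases of any kind and CC, TTCNNNGAA for STAT and ACGTG, the hypoxia element core, and matches are in capitals. The first line is chr3:196082041-196082340 on the minus strand and the second chr2:119223584-119223883 on the plus strand.
TFRC: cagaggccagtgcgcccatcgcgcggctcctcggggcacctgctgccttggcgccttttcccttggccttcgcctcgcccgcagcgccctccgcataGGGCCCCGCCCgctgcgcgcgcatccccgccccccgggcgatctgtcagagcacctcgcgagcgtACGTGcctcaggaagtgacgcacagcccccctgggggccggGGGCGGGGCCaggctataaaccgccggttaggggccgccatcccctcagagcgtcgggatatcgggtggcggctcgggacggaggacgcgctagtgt
STEAP3: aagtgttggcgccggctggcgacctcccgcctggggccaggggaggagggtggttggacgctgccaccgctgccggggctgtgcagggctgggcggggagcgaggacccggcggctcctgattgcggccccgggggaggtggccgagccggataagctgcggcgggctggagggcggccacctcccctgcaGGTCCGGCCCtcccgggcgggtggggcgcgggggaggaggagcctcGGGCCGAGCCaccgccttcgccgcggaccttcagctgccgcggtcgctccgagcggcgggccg
TFRC held ACGTG at -88, counted with the start at 0, and 3 matches to the NF-kB motif, of which 2 overlap. STEAP3 held 2 matches to that motif. Of 35116 windows in the table, 58.7% held the NF-kB motif, 21.4% ACGTG, 13.3% TGACNNNGC and 7.66% TTCNNNGAA. The NF-kB motif was also matched in windows of SLC40A1, STEAP2, SLC11A2, STEAP4 and IREB2, with 8 matches in SLC40A1 and 5 in a window of STEAP2. Among the windows not printed, STEAP4 held TTCNNNGAA once, FTL held ACGTG once and a window of NCOA4 held TGACNNNGC once.

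Of 97 other genes of iron handling in 8 lists, 76 reached a mean count of 50. Past 1.5-fold, 14 were higher in PPAT-CM than control-CM and 6 were lower, with a median log2 ratio of 0.14, where 12.0% of all genes kept were higher and 8.71% lower. With total counts 25 were higher and 1 was lower, but that scaling moved the median log2 ratio of all genes by 0.24 in this comparison. The shares over all genes under it are not given, so these 2 numbers have no background beside them. For PVAT-CM against control-CM 5 were higher and 0 lower, beside 3.15% and 3.49% of all genes. For PPAT-CM against PVAT-CM 8 were higher and 1 lower, beside 8.56% and 6.07%. The lists are short, and counts within a list are a description set beside these shares. PCBP2, TAX1BP1, SLC22A17, CDC42BPA, HMOX2, SLC25A28, ACSL4, AIFM2 and ALOX15 are named below to complete their lists or groups and were chosen after their values were seen.

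The poly(rC)-binding proteins, some of which act as iron chaperones, differed from each other. Of 7 measured storage and chaperone genes 3 were higher and 1 lower in PPAT-CM than in control-CM, where 12.0% and 8.71% of all genes were. PCBP1, which loads iron into ferritin, had 1422 counts in PPAT-CM, 583 in PVAT-CM and 379 in control-CM. It stood at 3.09 (2.76 to 3.48) for PPAT-CM and 1.64 (1.44 to 1.87) for PVAT-CM against control-CM, in the order of media seen for FTH1. PCBP3 was at 2.76 (2.00 to 3.86) and TAX1BP1, an autophagy receptor that works with NCOA4, at 1.55 (1.47 to 1.63) for PPAT-CM against control-CM, while PCBP4 was at 0.548 (0.502 to 0.597). With 167, 47 and 50 counts in PPAT-CM, PVAT-CM and control-CM, PCBP3 reached a mean count of 50 through PPAT-CM alone, which limits its place among the 3. PCBP2, the PCBP gene with most counts, had 6468 in PPAT-CM, 5249 in PVAT-CM and 5204 in control-CM and was at 1.03 (0.988 to 1.06) for PPAT-CM against control-CM. FTMT, mitochondrial ferritin, had 0 counts in every library, which at these depths allows at most 0.163 to 0.210 scaled CPM.

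Most measured uptake genes outside the 10 lay within 1.5-fold. Of 14 listed 7 were measured, with 0 higher and 1 lower in PPAT-CM than in control-CM, beside 12.0% and 8.71% of all genes kept. Their median was -0.082. SLC22A17, the receptor of the iron-binding protein lipocalin-2, was at 0.623 (0.570 to 0.682). SLC39A14, a zinc and iron importer, was at 1.10 (1.00 to 1.21) and HFE, a partner of the transferrin receptor, at 0.878 (0.670 to 1.15). Transferrin itself, TF, had 10, 9 and 24 counts in PPAT-CM, PVAT-CM and control-CM, TFR2 had 32, 20 and 23, and CYBRD1, the duodenal ferrireductase, had 2, 2 and 0.

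Regulators of iron sensing were mostly within 1.5-fold. ACO1, which encodes the other iron regulatory protein, had 910 counts in PPAT-CM, 622 in PVAT-CM and 685 in control-CM, a ratio of 1.10 (0.991 to 1.21) for PPAT-CM against control-CM. FBXL5, which directs the breakdown of iron regulatory protein when iron is plentiful, had 1179, 1152 and 1302 counts in that order and a ratio of 0.747 (0.690 to 0.809). In this list 1 of 11 genes was past 1.5-fold, where 12.0% of all genes kept were higher and 8.71% lower. It was NUBP1 of the cytosolic iron-sulphur assembly pathway, at 1.73 (1.27 to 2.38). Among transcripts with a known iron-responsive element outside the 10 genes, CDC14A was at 1.60 (1.20 to 2.16) and CDC42BPA at a log2 ratio of -0.28.

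Most heme and mitochondrial iron genes lay within 1.5-fold. Of 14 heme genes 3 were higher and 0 lower in PPAT-CM than in control-CM, beside 12.0% and 8.71% of all genes kept. ALAS1, the rate-limiting enzyme of heme synthesis, was at 2.21 (1.92 to 2.56), and the heme oxygenase genes HMOX2 and HMOX1, whose products free iron from heme, were at 1.65 (1.46 to 1.86) and 1.55 (1.27 to 1.90). Of 20 measured mitochondrial iron genes 2 were higher and 2 lower, near the shares of 12.0% and 8.71% over all genes. Of these the iron-sulphur assembly factors HSCB and ISCA1 were at 2.12 (1.80 to 2.50) and 1.87 (1.69 to 2.08), the iron importer gene SLC25A28 at 0.584 (0.495 to 0.689) and the ferredoxin reductase gene FDXR at 0.593 (0.502 to 0.698). Against PVAT-CM, PPAT-CM had an FDXR ratio of 0.506 (0.430 to 0.594).

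Among systemic iron genes BMP6, an inducer of hepcidin, had 204 counts in PPAT-CM, 24 in PVAT-CM and 9 in control-CM. Its ratio was 18.7 (9.66 to 41.5) for PPAT-CM against control-CM and 2.84 (1.27 to 6.94) for PVAT-CM against control-CM, and it reached a mean count of 50 through PPAT-CM alone. Hepcidin itself, HAMP, had 0, 2 and 0 counts in PPAT-CM, PVAT-CM and control-CM. The ferroxidase genes CP and HEPH, whose products aid export, were under a mean count of 50, CP with 54, 14 and 5 counts and HEPH with 13, 0 and 1. The ferroptosis list, of 10 measured genes, had 2 higher and 2 lower in PPAT-CM than in control-CM, beside 12.0% and 8.71% of all genes kept. LPCAT3 at 1.79 (1.42 to 2.28) and ALOX15 at 1.51 (1.37 to 1.66) were higher. ACSL4 at 0.570 (0.439 to 0.738) and AIFM2 at 0.621 (0.507 to 0.761) were lower. For PVAT-CM against control-CM 2 of the 10 were higher and 0 lower, beside 3.15% and 3.49% of all genes kept. SLC7A11, the cystine transporter gene, was the highest of that list there, at 2.20 (2.01 to 2.40), and LPCAT3 was at 1.55 (1.20 to 2.01). In PPAT-CM against control-CM SLC7A11 was at 1.47 (1.35 to 1.62), just inside the threshold.

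**Figure D5:**
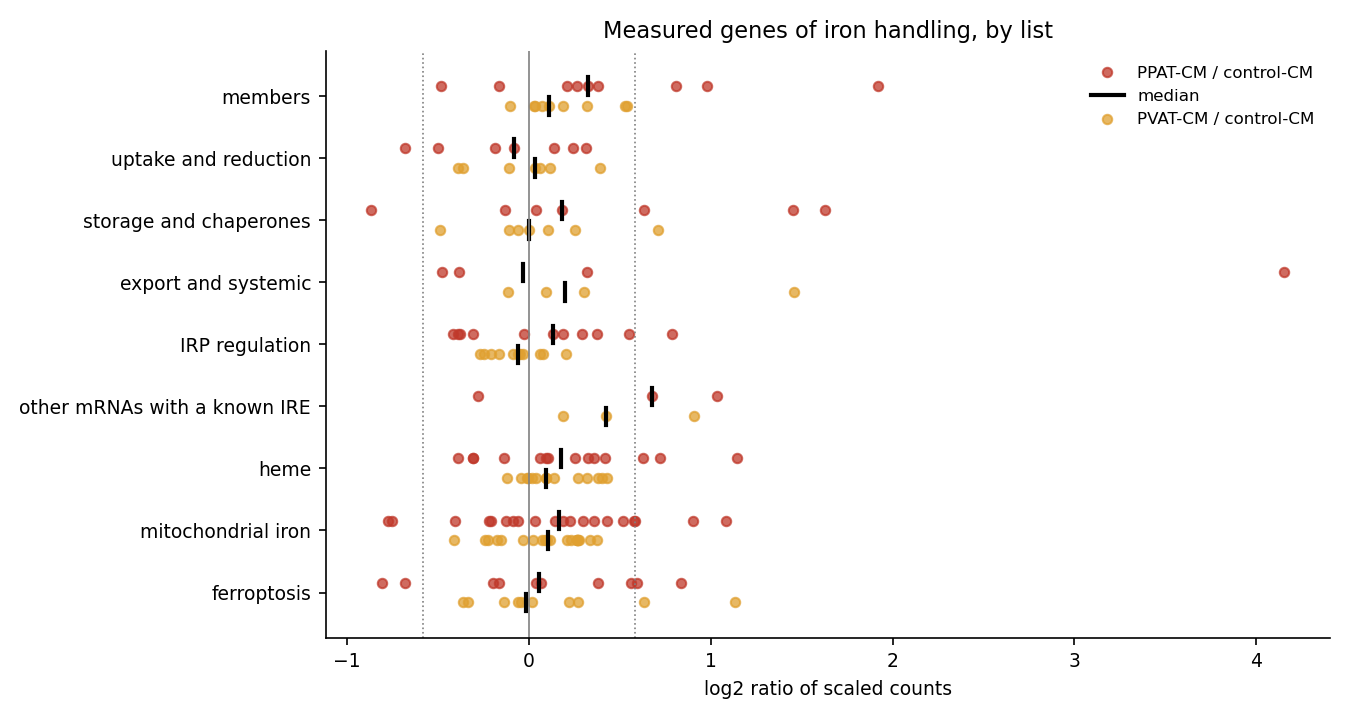
Log2 ratios of measured iron genes by list (members are the 9 measured of the 10 genes), for PPAT-CM over control-CM (upper row of each list) and PVAT-CM over control-CM (lower row), with the list median as a black bar; dotted lines mark 1.5-fold. All list medians lie within the dotted lines except that of the other mRNAs with a known iron-responsive element in PPAT-CM, at 0.68, and the points farthest right are BMP6, FTH1 and PCBP1 in PPAT-CM.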

How the data were processed

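RNA was measured in 3 LNCaP libraries, 1 for each medium. The authors deposited raw whole-number read counts. FastQC, Trimmomatic, HISAT2, featureCounts and edgeR were used with GRCh38, per the submitters' processing notes, which as read here give no versions, strand setting or treatment of multiply mapped reads. TMM factors were computed with edgeR 4.0.16 under R 4.3.3 (1.08 in PPAT-CM, 1.01 in PVAT-CM and 0.917 in control-CM). Ratios carry exact conditional binomial (Clopper-Pearson) 95% intervals, computed in Python 3.11.15 with scipy 1.17.1; PCR duplicates could not be told from separate molecules, and intervals cover counting error only. Log2 ratios, used for calls and medians, have a pseudocount of 0.5. Calls needed 1.5-fold and a mean count of at least 50. A count of 0 was set at a floor of 3 counts. With 1 library per medium no p-value was computed.

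Levels per kilobase used merged exons of GENCODE release 29, which gave a name for 58611 of 58884 rows. Names outside the 10 genes came from a gene name table. The genes and lists were chosen with earlier results of these data known. Named were the 10 genes, up to 8 listed genes per comparison with the largest ratios past 1.5-fold, a fixed set led by STEAP1 and ACO1, the copies with most counts, genes overlapping the 10 and the nearest genes by ratio to FTH1 and TFRC; overlapping genes with at most 3 counts are not described, and some genes this rule takes are left out here. The iron-responsive element search and the principal transcript lengths were added after the data were seen. The steps were tested on simulated data. Alternatives were DESeq2 1.42.0 size factors, total counts, upper quartile factors, TMM without mitochondrial genes, mean counts of at least 10 or 200 or no filter, a pseudocount of 5, 2-fold, intervals that exclude 1, and summed copies.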

Additional observations from a re-analysis of the deposited data

How the results depend on the processing

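No paired analysis was possible because each medium had 1 library and the ratios come from no test, and no library could be left out. With a 2-fold threshold 1 of the 10 genes, FTH1, remained past it in PPAT-CM against control-CM and in PPAT-CM against PVAT-CM. Of the 76 other iron genes measured, 6 were past 2-fold in PPAT-CM against control-CM, beside 6.67% of all genes kept. In PVAT-CM against control-CM 2 were, beside 0.906%, and in PPAT-CM against PVAT-CM 3 were, beside 3.92%. At 1.5-fold the numbers were 20, 5 and 9 in that order. Without a filter these numbers were 36, 18 and 20, and 1 of the 10 genes, STEAP4, was past 1.5-fold in PVAT-CM against control-CM; with a mean count of at least 200 they were 13, 2 and 6, and with at least 10 they were 25, 9 and 12. Fewer or more genes were tested under these filters, and the shares over all genes under them are not given. With total counts 2 of the 10 genes, FTH1 and SLC40A1, were past 1.5-fold in PVAT-CM against control-CM. Total counts also turned the log2 ratio to 0.073 for FTL in PPAT-CM against control-CM, to 0.025 for STEAP3 in PVAT-CM against control-CM and to 0.052 for NCOA4 in PPAT-CM against PVAT-CM. The total-count scaling itself moves all genes by the shift given above, and the shares over all genes under it are not given. DESeq2 size factors, upper quartile factors, TMM without mitochondrial genes, a pseudocount of 5 and intervals that exclude 1 left each total of calls within 1.5 times, while the other iron genes lower in PPAT-CM than PVAT-CM numbered 2 in place of 1 with upper quartile factors and with TMM without mitochondrial genes. Depth limits SLC40A1, STEAP3 and STEAP4 most.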

Other observations

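Some secreted and surface iron genes under a mean count of 50 had wide ratios, and were chosen here after their values were seen. LCN2, which encodes lipocalin-2, had 110 counts in PPAT-CM, 23 in PVAT-CM and 10 in control-CM, a ratio of 9.07 (4.75 to 19.4) for PPAT-CM against control-CM. The ferroxidase gene CP was at 8.91 (3.59 to 28.5) in the same comparison. TMPRSS6, a protease that restrains hepcidin induction, had 42 counts in PPAT-CM, 21 in PVAT-CM and 80 in control-CM, with ratios to control-CM of 0.433 (0.291 to 0.637) for PPAT-CM and 0.279 (0.164 to 0.456) for PVAT-CM.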
